A study of Caenorhabditis elegans with 2 samples.

Results

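The genes described are 10 T-box genes of Caenorhabditis elegans: tbx-2, tbx-8, tbx-9, tbx-11, tbx-30, tbx-35, tbx-37, tbx-38, mab-9 and mls-1. They were taken by name from the Ensembl annotation of WBcel235, where they are 10 of 19973 protein-coding genes on the nuclear chromosomes. Every deposited region with its summit within 10 kb of a member's gene body was collected. The data are ChIP-seq of TBX-8 from whole embryos of both sexes and mixed stages, obtained by egg bleaching and labelled with an age of 2.5 hours. The single group is strain RW10470, which has the mutation unc-119(ed3) and a transgene, st10470, with TBX-8 joined at its C terminus to TY1, EGFP and 3xFLAG and with unc-119(+). The tagged protein was pulled down with antibody to GFP in 2 biological replicates, and no strain without the tag is among the samples used here. Chromatin came from whole animals, so binding in a few cells and weak binding in many cannot be told apart.

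T-box factors share a DNA-binding domain that recognises sites with the core GGTGTG. Several of them control their own gene or another of the family. In the worm, TBX-2 is known to repress its own promoter. TBX-8 and TBX-9 act redundantly in the shaping of the embryo, TBX-37 and TBX-38 redundantly in descendants of the founder cell ABa, and TBX-35 in the MS lineage that makes pharynx and muscle. TBX-2 is needed for pharyngeal muscle, MAB-9 for hindgut and tail cells, and MLS-1 for uterine muscle. The comparison asks whether tagged TBX-8 was recovered at its own gene or at these relatives.

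Signal below is the authors' own strength value of each region, used only as a rank within its list. The pooled list of both replicates holds 16355 regions, the list of replicate 1 24167 and that of replicate 2 20865. These lists keep background on purpose. The authors' thresholded list keeps 521 pooled regions with signal of 75.8 or above. Without read numbers in the lists, sequencing depth is unknown.

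Sequences are given for some of the places where a region or a core lies at a T-box gene. They are not a representative sample: the core lay within 100 bp of the summit in 2 of the 23 pooled regions near members. Other cores and regions, such as the cores before tbx-35 and tbx-38, are not printed. All are from the WBcel235 genome on the strand of the gene, written 5′ to 3′, and capitals mark the core GGTGTG or its reverse complement CACACC. Each lies on chromosome III, minus strand, outside all annotated exons. The window at the summit behind tbx-2 (chrIII:5130708-5130908) had the highest pooled signal at that gene. The stretch before the tbx-2 start (chrIII:5136347-5136546) holds its promoter core. The tbx-11 window (chrIII:6047169-6047369) surrounds the promoter summit found in every list but the thresholded one. The tbx-37 window (chrIII:11227519-11227719) is a promoter summit of replicate 1, and the tbx-9 sequence (chrIII:10342236-10342336) is centred on a core without any region.

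tbx-2 downstream region: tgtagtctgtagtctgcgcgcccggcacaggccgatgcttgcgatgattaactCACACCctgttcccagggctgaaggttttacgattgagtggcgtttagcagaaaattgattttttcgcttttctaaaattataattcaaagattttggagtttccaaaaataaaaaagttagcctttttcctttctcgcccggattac
tbx-2 before the start: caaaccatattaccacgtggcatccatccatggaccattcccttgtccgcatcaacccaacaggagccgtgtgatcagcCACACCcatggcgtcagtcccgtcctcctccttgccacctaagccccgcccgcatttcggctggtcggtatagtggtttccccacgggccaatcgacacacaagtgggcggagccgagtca
tbx-11 promoter region: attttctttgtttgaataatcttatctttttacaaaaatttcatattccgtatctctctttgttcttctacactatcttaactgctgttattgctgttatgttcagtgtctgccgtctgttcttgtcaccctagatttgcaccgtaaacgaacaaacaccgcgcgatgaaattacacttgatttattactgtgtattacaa
tbx-37 promoter region: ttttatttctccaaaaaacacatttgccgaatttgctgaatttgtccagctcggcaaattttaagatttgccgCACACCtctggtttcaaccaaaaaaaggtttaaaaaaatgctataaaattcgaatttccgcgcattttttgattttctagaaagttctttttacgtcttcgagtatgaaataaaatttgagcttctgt
tbx-9 upstream core: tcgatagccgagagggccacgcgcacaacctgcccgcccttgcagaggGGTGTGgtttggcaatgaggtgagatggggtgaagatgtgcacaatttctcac

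No member had a pooled region nearby that passed a threshold. Within 10 kb of the gene body, 0 of 10 members had a thresholded region, against 11.3% of all protein-coding genes. Here q is the false discovery rate that the authors' caller gave each region. Likewise 0 of 10 had a pooled region at q below 0.05, against 16.9% of all genes. A count of 0 of 10 allows a share of up to 30%, above both of these shares, so 10 genes are too few to show a difference. In the list of replicate 1 alone, 1 of 10 members, tbx-37, had a region at q below 0.05 (18.3% of all genes), and in that of replicate 2 0 of 10 had one (15.7% of all genes). The thresholded region closest to a member lay 18.3 kb from tbx-35, 1168 bp from a start of ins-13 and beside a small structural RNA gene (signal 205). The next lay 36.4 kb from tbx-2, at K10D2.5 (signal 107), and for tbx-8 the nearest lay 57.8 kb away, at the histone acetyltransferase gene hat-1 (signal 86.9).

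Regions below these thresholds lay near some members and not others. Any pooled region lay within 10 kb of 6 of 10 members, tbx-2, tbx-11, tbx-35, tbx-37, tbx-38 and mab-9, against 89.7% of all genes. The replicate lists had one at 7 of 10 members each, with mls-1 added in both, against 97.0% of all genes in replicate 1 and 95.8% in replicate 2. On chromosome III, 4 of the 7 members there had a pooled region, against 97.1% of the chromosome's genes. Among the members without one, tbx-8 and tbx-9 are neighbours in the same stretch, so they are not independent. The tbx-30 gene, on chromosome IV, is repeated sequence, where reads cannot be placed at 1 position. The members had a median of 1.5 pooled regions, against 3 over all genes. Their 23 pooled regions had a lowest signal of 27.5, a median of 32.8 and a highest of 61.6, and the median of the whole list was 34.6. By position 12 of the 23 lay in introns, 7 between genes, 2 in coding exons, 1 in the 5′ UTR of tbx-2 and 1 in its 3′ UTR. Relative to the member, 10 lay upstream, 10 downstream and 3 inside the gene. Shares by position or side were not computed for all regions, so these counts are descriptions only. Over the 6 members with a pooled region, the highest one had a median percentile of 54.3 within the list, against 79.1 over the 17913 genes with a region.

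**Figure D1:**
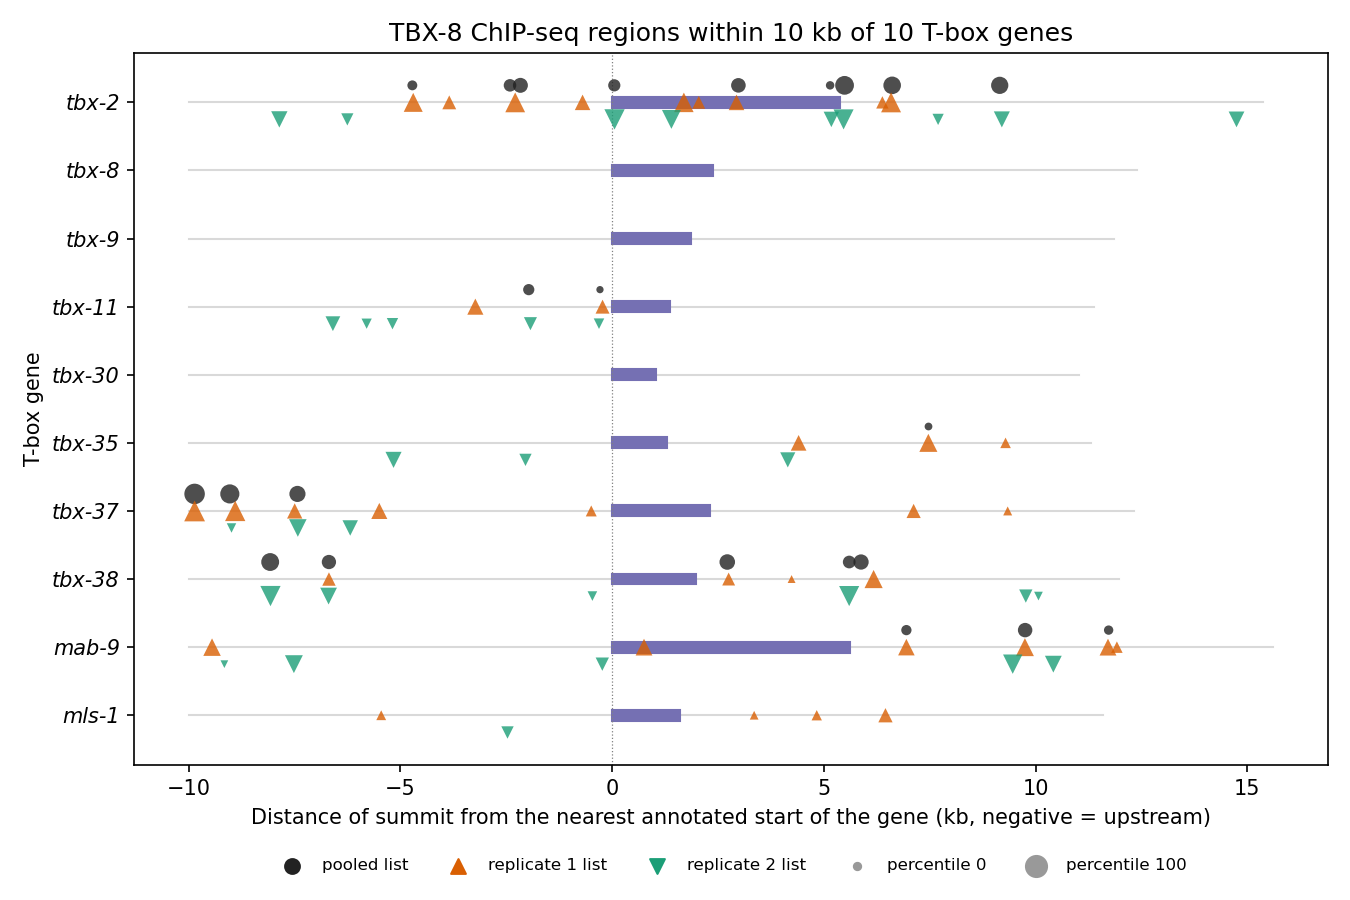
Regions within 10 kb of the 10 T-box genes, by distance of the summit from the nearest start of the gene (kb, negative upstream), with gene bodies as bars and marker size showing the percentile of signal within each list. The rows of tbx-8, tbx-9 and tbx-30 are empty in all lists, tbx-2 has 9 pooled regions, and mls-1 has regions in the replicate lists but none in the pooled list.

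The tagged gene itself and its closest relative had no region at all. tbx-8 (III, 10347349 to 10349740, plus strand) and tbx-9 (III, 10340006 to 10341858, minus strand) lie head to head, and their 10 kb surroundings overlap. The nearest summit to tbx-8 lay 23891 bp away in the pooled list, 18278 bp in replicate 1 and 26309 bp in replicate 2. Summits lay closer than that to 98.4%, 99.4% and 99.6% of all protein-coding genes in these lists. For tbx-9 the distances were 16548, 16548 and 18966 bp, with summits closer to 95.8%, 99.2% and 99.1% of genes.

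Both genes fall in a single long stretch without summits. Its length was 54.5 kb in the pooled list, 44.6 kb in replicate 1 and 57.0 kb in replicate 2, where it was the longest on chromosome III. In the other lists it was number 2 on that chromosome. The pooled list was made from both replicates, so the lists are not independent. The stretch around a gene's start had a median of 12.8 kb over all genes in the pooled list, 7.82 kb in replicate 1 and 8.82 kb in replicate 2. As long a stretch enclosed 5.13% of gene starts in the pooled list, 1.68% in replicate 1 and 1.17% in replicate 2. With the 3 lists laid together, the stretch without any summit was 44.6 kb (III, 10323458 to 10368018). As long a stretch enclosed 0.636% of gene starts. By count, 9 of 57998 stretches in the genome were as long, where the median stretch was 711 bp. Summits of the same region a few bp apart in different lists were kept separate, which raises that total and shortens that median. In the single lists, stretches as long as that of tbx-8 numbered 60 of 16349 (pooled), 27 of 24161 (replicate 1) and 15 of 20859 (replicate 2). The median stretch there was 3277, 2392 and 2875 bp. The 44.6 kb stretch holds 11 protein-coding genes, among them ced-9, an inhibitor of cell death, and mev-1, which encodes a subunit of succinate dehydrogenase.

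**Figure D2:**
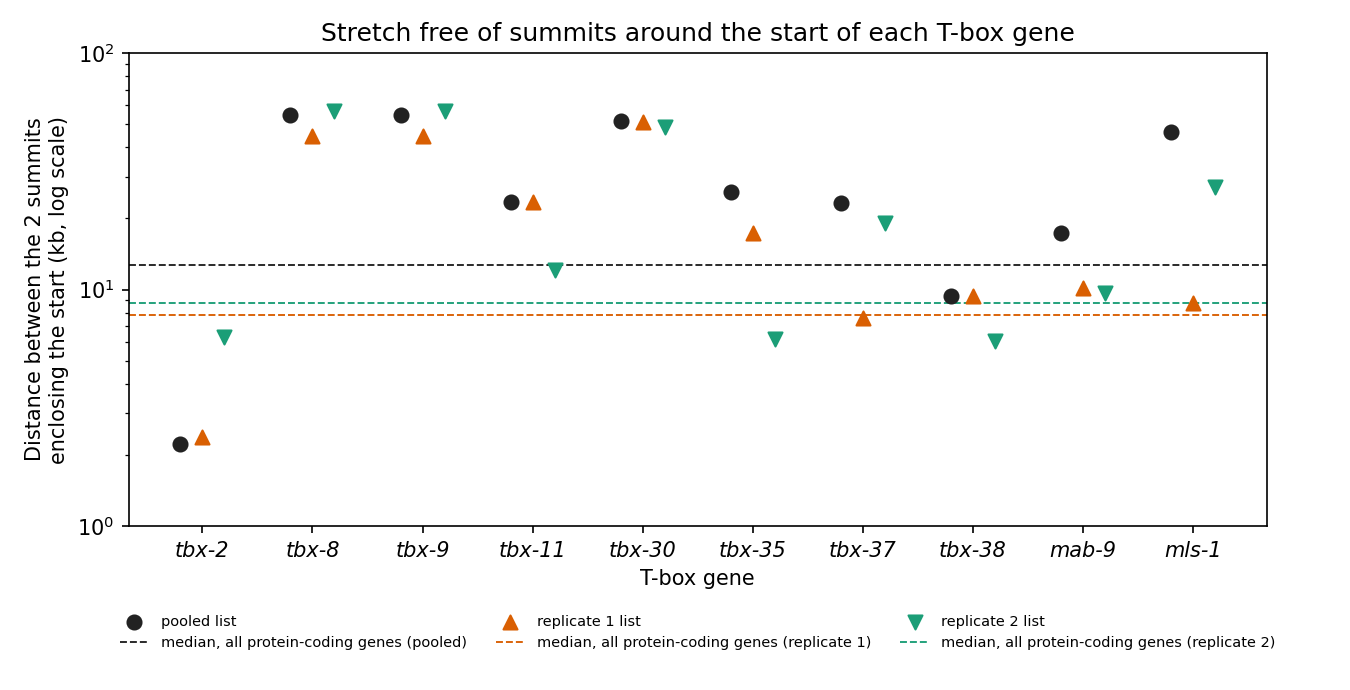
Distance between the 2 summits that enclose the start of each T-box gene (kb, log scale) in the pooled list and in each replicate list, with dashed lines for the medians over all protein-coding genes. tbx-8, tbx-9 and tbx-30 lie above 40 kb in all lists, while tbx-2 lies below the median in every list.

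Reads from sequence that occurs more than once cannot be placed at 1 position, so the share of 31-base words found once in the nuclear genome was computed for each gene. It was 91.3% over the genome. For the stretch around tbx-8 and tbx-9 it was 98.5%, and for the body of each gene 100%. The other 8 stretches of that length or longer had 1.94% to 65.8% of words found once. Among the 30 stretches of 30 kb or more, 8 had over 90% of words found once, and the tbx-8 stretch was the longest of those 8. The files hold regions and not reads, so the number of copies of tbx-8 in the transgenic strain and the read depth over the stretch were not analysed here. Whether any part of the genome was masked before regions were called is not given in the sources used here. An absence from these lists does not show an absence of binding.

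**Figure D3:**
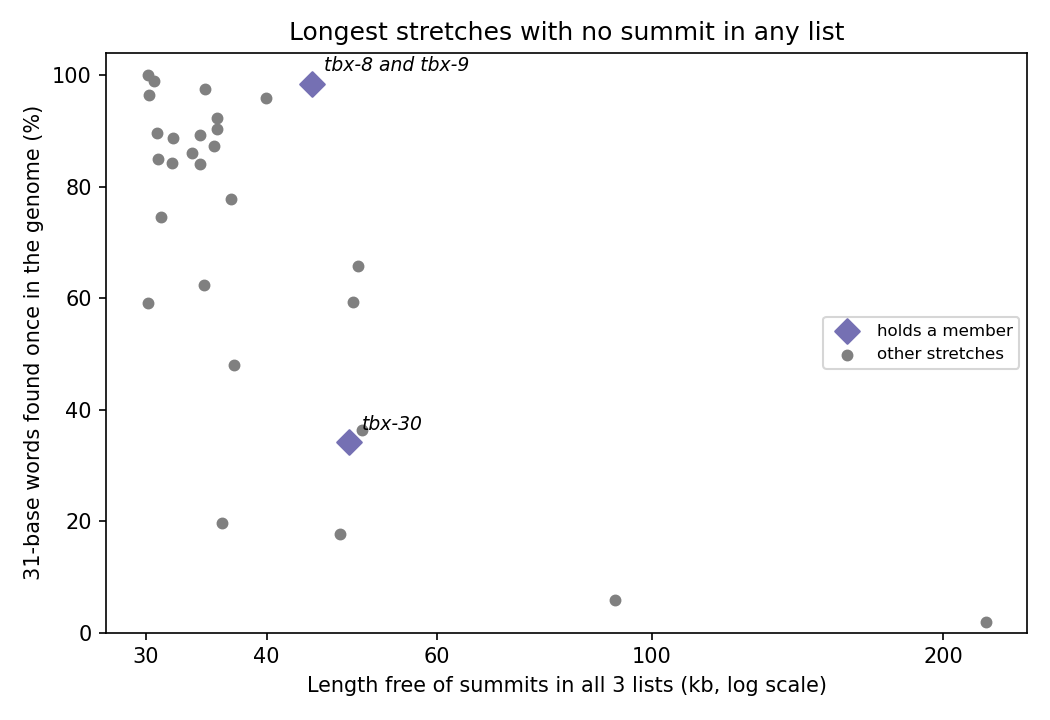
The 30 stretches of 30 kb or more without a summit in any of the 3 lists, by length (kb, log scale) and by the share of 31-base words that occur once in the nuclear genome (%). The stretch with tbx-8 and tbx-9 is 44.6 kb long at 98.5%, and the stretch with tbx-30 is 48.7 kb long at 34.2%.

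tbx-30 also had no region in any list, in sequence of another kind. Ensembl gives this name to a pair of genes on chromosome IV. The one taken here (IV, 5236522 to 5237552) is the gene that RefSeq calls tbx-30, and RefSeq calls the other (IV, 5232845 to 5233875) tbx-42. The pair point away from each other, 2646 bp apart, and all 1031 bases are identical. Of the 31-base words in the gene body 0% occur once, and with 10 kb to either side 17.8% do. The nearest summits lay 14708 bp away in the pooled list, 14346 bp in replicate 1 and 13292 bp in replicate 2. Reads from these copies cannot be told apart.

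mls-1 (III, 7460341 to 7461934) had no pooled region within 10 kb, 4 in replicate 1 and 1 in replicate 2. The replicate 1 regions had signals of 14.6 to 17.5, and the 1 region of replicate 2 had 15.2, 2483 bp upstream of the start. These values are in the lower part of each list, where the highest of replicate 1 ranked 14744 and that of replicate 2 ranked 15431. In the surroundings of mls-1, 75.4% of words occur once.

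tbx-2 (III, 5130923 to 5136296, minus strand), the gene for a factor of pharyngeal muscle, had the most regions, 9 in each of the pooled and replicate lists. Its pooled signals ran from 28.0 to 42.3 with a median of 33.0. The highest lay 115 bp behind the 3′ end, between tbx-2 and sax-2 (III, 5130578 to 5131037, signal 42.3, rank 3816, q = 0.538). Replicate 2 had a matching region there (signal 26.0, rank 2139) and replicate 1 had none within 100 bp. The tbx-2 start had a pooled summit 50 bp into the gene, in the 5′ UTR (III, 5136016 to 5136475, signal 30.5, rank 12297). Replicate 2 matched it with its highest region at tbx-2 (signal 27.8, rank 1620, q = 0.208), and in replicate 1 the closest summit before the start lay 699 bp upstream (signal 18.6, rank 12520).

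Of the 9 pooled regions at tbx-2, 3 matched replicate 1 alone, 4 matched replicate 2 alone, 0 matched both and 2 matched neither. Over all pooled regions, 35.7% matched replicate 1 alone, 25.0% replicate 2 alone, 30.5% both and 8.79% neither, so a match in 1 replicate or none was the more frequent outcome in the whole list too. The 2 at tbx-2 without a match lay in an intron of the neighbour Y54H5A.2, 2167 and 2413 bp upstream of tbx-2, and replicate 1 had a summit between them at 2290 bp (signal 27.4, rank 3047).

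tbx-11 (III, 6045615 to 6046981, minus strand) was the only member whose promoter had a matching summit in both replicates. The summit lay 288 bp upstream of the start in the pooled list, 227 bp in replicate 1 and 311 bp in replicate 2. All were weak: the pooled signal was 27.5 with rank 16334 of 16355, and the replicates gave signals of 17.2 (rank 15306) and 14.4 (rank 17683). The other pooled region, in a coding exon of F40H6.5 1970 bp upstream, had signal 29.7 and rank 13255.

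tbx-37 (III, 11224808 to 11227125, minus strand) had the highest region of any member. It lay 9861 bp upstream, close to the 10 kb limit and 118 bp from a start of another gene, Y47D3A.14 (III, 11236756 to 11237215, signal 61.6, rank 944, q = 0.0673). Replicate 1 had the same summit with signal 43.1, rank 548 and q = 0.00822. Replicate 2 had no summit within 100 bp of it. The other 2 pooled regions, at 7432 and 9029 bp upstream, had signals of 35.3 and 44.3 and lay in introns of Y47D3A.34 and Y47D3A.14. At the tbx-37 promoter, replicate 1 had a weak region 494 bp upstream (signal 15.5, rank 19948), which neither the pooled list nor replicate 2 shared.

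tbx-38 (III, 11784082 to 11786061, minus strand), the redundant partner of tbx-37, had 5 pooled regions with signals of 30.9 to 39.3. The highest lay 8076 bp upstream, 1611 bp from a start of twk-39 (rank 5151), and replicate 2 matched it with signal 27.5 and rank 1685. A region 6689 bp upstream, beside a small structural RNA gene, was found in both replicates (pooled signal 32.6). The promoter had a region in replicate 2 alone, 467 bp upstream (signal 14.1, rank 18716). In the 10 kb surroundings, 77.9% of words occur once.

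The other 2 members with pooled regions had weak ones at neighbouring genes. At mab-9 (II, 516024 to 521635, plus strand), 3 regions lay behind the gene, in slc-36.2 and lgc-34, with signals of 29.0, 32.8 and 28.4. All 3 matched replicate 1 alone, as did 35.7% of all pooled regions. Its promoter had a region in replicate 2 alone, 233 bp upstream (signal 15.7, rank 14172). At tbx-35 (II, 5524101 to 5525397, minus strand), the 1 pooled region lay 6168 bp behind the gene and 190 bp from a start of ZK177.9 (signal 27.7, rank 16012).

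**Figure D4:**
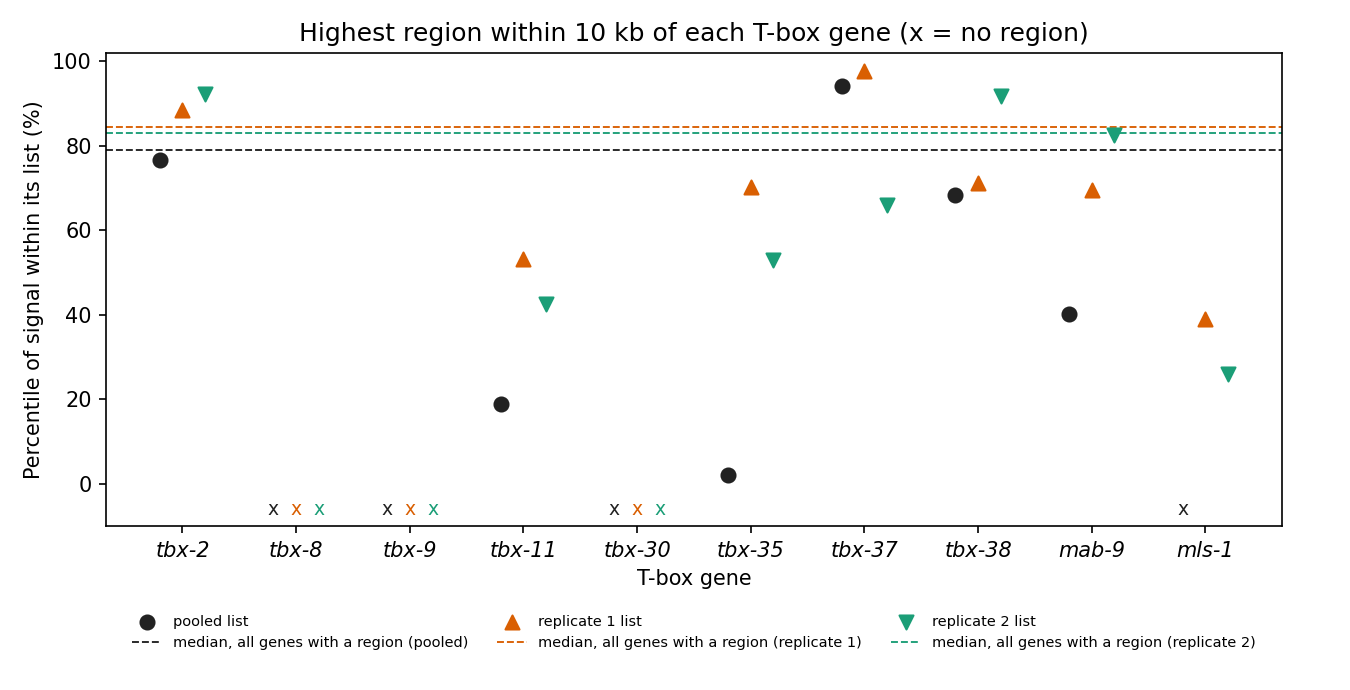
Percentile of signal within its list (%) of the highest region within 10 kb of each T-box gene, for the pooled list and both replicate lists, with dashed lines for the medians over all protein-coding genes with a region. Among pooled values, that of tbx-37 (94.2) is above the line of 79.1, and those of tbx-2, tbx-11, tbx-35, tbx-38 and mab-9 are below it.

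Counted over promoters, from 1000 bp before to 200 bp after a start, 2 of 10 members had a pooled summit, tbx-2 and tbx-11, against 25.6% of all genes. Replicate 1 had 3 of 10, with tbx-37 added, against 33.0% of genes, and replicate 2 had 4 of 10, with tbx-38 and mab-9 added, against 30.7%. These shares are near those of all genes. The members with a promoter region in both replicate lists were tbx-2 and tbx-11, and at tbx-2 the positions in the replicates differed. Of the 23 pooled regions, 15 lay more than 5 kb from the start of the member, and for 10 the nearest protein-coding start was the member's own. The same counts for other genes were not computed, so they do not set the members apart. Within 1000 bp of any protein-coding start lay 47.8% of the 23, against 45.9% of all pooled regions.

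Few of the pooled regions at members had a partner in each replicate. Both replicates had a summit within 100 bp for 3 of 23 (13.0%, 95% Wilson interval 4.54% to 32.1%), against 30.5% of all pooled regions, so the interval includes the share of the whole list. These 3 were the tbx-11 promoter region, the tbx-37 region at 7432 bp and the tbx-38 region at 6689 bp. By overlap of at least 1 bp the count was 7 of 23 (30.4%), with a Wilson interval of 15.6% to 50.9% that leaves out the 53.9% of all pooled regions. Whether the interval includes the share of the whole list thus depends on the rule for a match. Intervals cover counting error only, and regions at 1 gene are not independent.

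The T-box core was present within 100 bp of the summit of 2 of the 23 pooled regions (8.70%, Wilson interval 2.42% to 26.8%), against 6.89% of all pooled regions. Both lay behind tbx-2, at 115 bp and 3779 bp from its 3′ end. The second was in an intron of sax-2, whose start was the nearest at 5133 bp. On either strand of the 1000 bp before the first start, 5 of 10 members held the core, against 20.8% of 19973 protein-coding genes. No interval was computed for this share, and base content was not matched. The share of G and C before the members ran from 23.7% (mab-9) to 45% (tbx-38). Matches lay 171 bp before tbx-2, 430 bp before tbx-9, 223 and 617 bp before tbx-35, 521 and 813 bp before tbx-37, and 647 and 841 bp before tbx-38. tbx-8, tbx-11, tbx-30, mab-9 and mls-1 had none in this window. Of these 8 cores, 3 lay inside a region of any list (37.5%, Wilson interval 13.7% to 69.4%), against 22.6% of the 4886 cores before all protein-coding starts, and regions of the 3 lists cover 16.8% of the nuclear genome. The interval includes the share over all genes. The 3 were that of tbx-2 inside its pooled region, that at 521 bp of tbx-37 inside its replicate 1 region, and that at 647 bp of tbx-38 inside its replicate 2 region. Of these only the tbx-37 core lay within 100 bp of the summit of its region. A match of letters is a description and not a site, and the words were not compared by a test.

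A pooled region lay within 10 kb of 6 of the 10 members and of 9 of the 12 other T-box genes of the annotation. Over all protein-coding genes the share was 89.7%. The 12 include the identical copy of tbx-30, tbx-42 in RefSeq, which had no pooled region. The highest region had a median percentile of 54.3 in members with one and of 83.5 in the other T-box genes with one. Over all genes with one it was 79.1. Of the other T-box genes, tbx-31 and tbx-32 share their highest region (signal 47.5, percentile 85.3), so these values are not independent. A region at q below 0.05 lay near 0 of the 10 members and near 1 of the 12 others, against 16.9% of all genes. The 1 was tbx-41 on chromosome X, which had 2 thresholded regions within 10 kb. These lay 6427 bp away beside a small structural RNA gene (signal 103) and 8876 bp away at ceh-39 (signal 78.8). The difference between the groups was not tested.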

How the data were processed

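The files are region lists from ChIP-seq of tagged TBX-8. Per the labels and the deposited file descriptions, each replicate list and the pooled list were called by the authors against a control with background kept, on ce11, and the thresholded list is what the irreproducible discovery rate step left. The caller is not given in the sources used here. Signal is the deposited score of a region and is not scaled between lists. The deposited −log10 q-value gave the counts at q below 0.05. The summit offset is the deposited distance from the region's start. Depth is unknown.

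Ensembl release 115 and the RefSeq genome, both WBcel235, which is ce11, gave positions and bases. Placement was computed with Python 3.11.15, numpy 2.4.6, pandas 2.3.3 and scipy 1.17.1 and checked on simulated data. Summits were matched within 100 bp. A small structural RNA gene counted as beside a region within 200 bp of its summit. Words of 31 bases were counted on both strands. With 1 group there is no comparison of conditions and no test. Members, lists and rules were chosen with earlier results of these data known. Described in full are each member's highest pooled region, promoter regions and regions at q below 0.05. The measures of stretches without summits and of words found once, the count of cores before starts, and the names ced-9 and mev-1, were chosen after the empty surroundings of tbx-8 were seen.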

Additional observations from a re-analysis of the deposited data

How the results depend on the processing

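Of 27 alternatives over 6 results, 18 left the value within the set tolerance (1.5 times for a count, the Wilson interval for a share, and for the median percentile the SD of 2.94 between the replicate lists) and 9 moved it. Members with any region numbered 6 in the pooled list and 4 to 7 under the alternatives. Members with a region at q below 0.05 numbered 0 in the pooled list. The single replicate lists gave 0 to 1, the 1 being tbx-37 in replicate 1. The other alternatives only narrowed the empty pooled set, so their value of 0 was fixed in advance. They were smaller windows, a lower q limit, the thresholded list and leaving out regions beside small structural RNA genes. These are counted among the 18 but do not test this result. Members with a promoter region numbered 2, and 3 to 4 in the single replicate lists. The median percentile of the highest region was 54.3 within 10 kb, 44.4 within 5 kb and 33.8 within 2 kb. In the smaller windows tbx-35 and tbx-37 drop out, and the median over all genes was not computed. In the single replicate lists it was 70.2 in replicate 1 and 66.0 in replicate 2, against 84.4 and 83.1 over all genes with a region. Pooled regions found in both replicates numbered 3, and 1 with summits matched within 50 bp, 5 within 250 bp and 7 by overlap, where the interval of the share no longer included that of all pooled regions. The share with the core was 2.86% to 13.0% under the alternatives. No paired analysis was possible because there is 1 group. The lists hold no reads, so depth, control reads and copy number at tbx-8 limit what an empty place shows.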

Other observations

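The gene unc-119, named in the transgene as unc-119(+), lies on the same chromosome as tbx-8. The stretch without summits around its start was 6.72 kb in the pooled list, 6.70 kb in replicate 1 and 6.83 kb in replicate 2, against 54.5, 44.6 and 57.0 kb around tbx-8. In the pooled list 71.9% of protein-coding gene starts lay in a stretch at least as long as that of unc-119, and 5.13% in one at least as long as that of tbx-8. How much of each locus the transgene carries was not analysed, nor whether its unc-119(+) has the sequence of this locus. A cause of the difference was not tested.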
